A study of Mus musculus with 18 samples.

Results

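The difference in gene expression between high and low performers was compared between the hippocampus and the prefrontal cortex of Diversity Outbred mice. Diversity Outbred mice are bred from several inbred founder strains so that no pair of animals has the same genotype. Of the 18 sequenced libraries of the series, 12 entered, 3 each from PFC of high performers, PFC of low performers, HPF of high performers and HPF of low performers. PFC stands for prefrontal cortex in the labels, and HPF is read here as hippocampus from its marker genes. The 6 libraries of the third tissue, MDTH, entered only an alternative fit to all 18 libraries and a side view of genes that had passed. The labels name no further treatment or allele, and they do not say what the letter codes in the HPF names stand for. The age was not given in the sources used here, and neither was the score that defined performance, beyond short-term memory as the subject of the series. The question was for which genes the difference of high minus low performers in HPF was not the one seen in PFC. For each gene the high minus low difference was therefore formed in each tissue on the scale of log2(normalized count + 1), and the PFC value was subtracted from the HPF value. This difference of differences, or interaction, is positive where high performers were relatively higher in HPF than in PFC. All genes with a mean of at least 10 normalized counts over the 12 libraries were tested, 18136 of 48440 in the table.

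The prefrontal cortex holds information over short delays and the hippocampus encodes places and episodes, and both exchange signals while an animal solves a memory task. Neurons of both tissues draw their ATP mainly from the respiratory chain, whose subunits come in part from the nuclear and in part from the mitochondrial genome. Neurons that have recently fired transcribe immediate-early genes, and the hippocampal fields dentate gyrus, CA3 and CA1 can each be told by a few marker genes.

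With the commonest low value of a library taken as 1 read, estimated depth was 41156443 to 48840131 reads in PFC and 76702950 to 88628752 in HPF. Only 76 to 193 genes per library held that value, so the smaller counting error this implies for HPF is uncertain. Summed over the 14 hippocampal markers, HPF libraries held 0.110% to 0.163% of all counts and PFC libraries 0.0164% to 0.0236%, and Prox1, a marker of dentate granule cells, ran from 10147 to 14743 normalized counts in HPF and from 603 to 1448 in PFC. In all 12 libraries Ddx3y, a Y-linked gene, had at least 2560 normalized counts, while Xist, transcribed from the inactive X chromosome, did not exceed 29.7. Replicate 2 of the HPF high group stood apart in Tcf7l2, a thalamic marker, at 2984 normalized counts against 151 to 301 in the other 5 HPF libraries. Ttr, the leading transcript of choroid plexus, was at 68839 or more in 4 libraries (replicate 1 of PFC high, replicates 2 and 3 of PFC low and replicate 2 of HPF high) and at most 7990 in the other 8. Replicate 2 of PFC low had the highest summed shares of oligodendrocyte (1.051%), meningeal (0.0533%) and blood genes (0.0749%). In all other libraries these shares were at most 0.649%, 0.0235% and 0.0325%. The column names of all PFC libraries give lane 1 with a further suffix of unstated meaning, and those of the HPF libraries give lanes 3 to 5. Lane and tissue therefore cannot be told apart. In PFC the high and low groups were named in different styles. In HPF they carried different letter codes (FF, EF and EF in high, BA, BD and BD in low), whose meaning is not stated. The numbers inside the names, 44, 88 and 165, were the same for the high groups of both tissues, whereas the low groups shared none (among them 130 in PFC and 163 in HPF). The interaction therefore cannot be told apart from a difference between the sets of low libraries, nor from a difference in preparation or anything else that follows the names.

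The effect of performance differed between the tissues for 1174 of the 18136 genes, 6.47% of those tested. It was more positive in HPF for 404 genes (2.23%) and more negative for 770 (4.25%). With the name number as a block, which allows for the numbers shared by the high groups, 2165 genes passed (11.9%), 815 positive (4.49%) and 1350 negative (7.44%), among them all 404 and all 770. Most of the interaction came from PFC. Within the same fit, 2167 genes (11.9%) differed between high and low performers in PFC, 1203 higher (6.63%) and 964 lower (5.32%) in high performers, whereas 185 (1.02%) differed in HPF, 67 higher (0.369%) and 118 lower (0.651%). The PFC difference was the larger in size for 320 of the 404 and for 598 of the 770. The differences in the 2 tissues had opposite signs for 316 of the 404 and 700 of the 770. With opposite signs and an unadjusted limma p under 0.05 in both tissues there were 103 of the 404 and 250 of the 770. Genes picked by the difference of the 2 effects tend to opposite signs, so these counts describe the genes and are no test. Among the 404, the median difference was -0.65 in PFC and 0.24 in HPF on the log2 scale. Among the 770 it was 0.45 in PFC and -0.19 in HPF. For comparison, the medians over all genes tested were within 0.01 of 0 in both tissues. There were 12 genes that differed in both tissues with the same sign, and for 0 of the 12 did limma find an interaction, and 4 that differed in both tissues with opposite signs. With only the lane 4 library of each HPF group the count was 21. It was 381 without replicate 2 of PFC high, 382 without replicate 1 of HPF low, 452 without replicate 3 of PFC low, 471 without replicate 3 of HPF high, 563 without replicate 3 of PFC high and 692 without replicate 2 of HPF low.

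**Figure D1:**
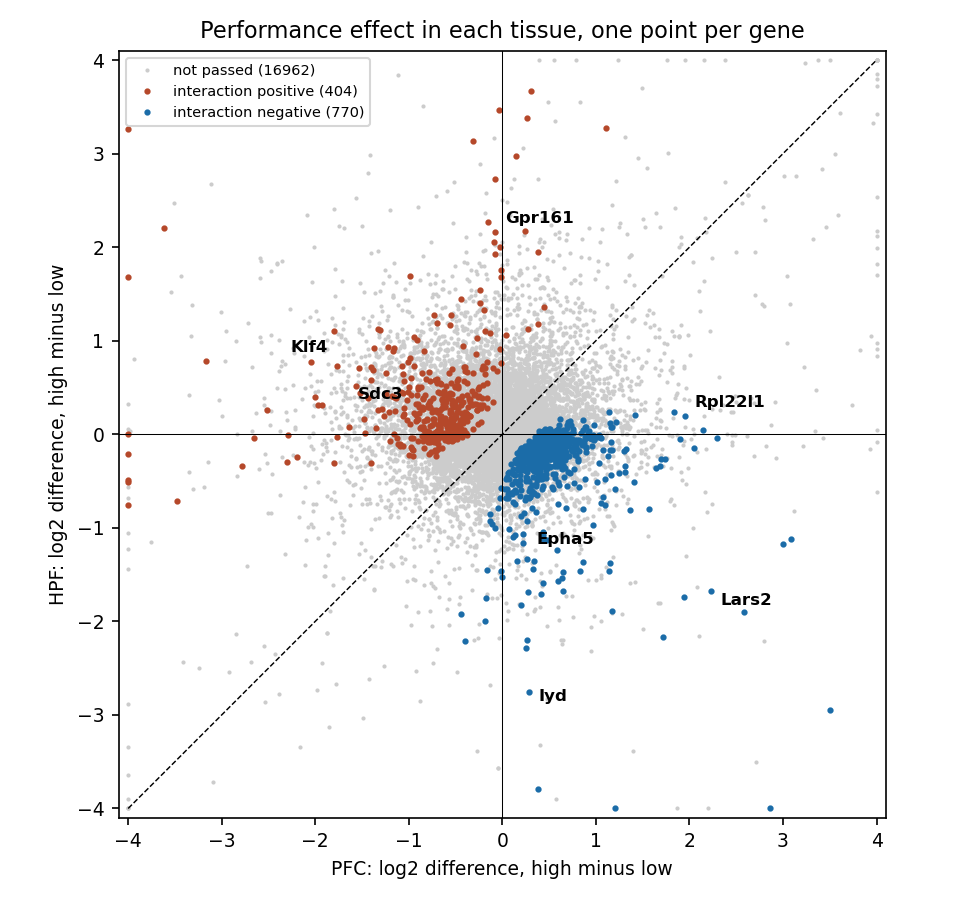
Difference of high minus low performers in PFC (x axis) and in HPF (y axis), both in log2 units, 1 point per gene for the 18136 genes tested, with values beyond 4 in size drawn at 4. The 404 genes with a positive and the 770 with a negative interaction lie off the dashed line of equal differences and spread more along the PFC axis than along the HPF axis.

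Among the genes that passed, the low PFC libraries most often stood apart from all others. Among the 404 genes, all 3 low PFC libraries lay above the other 9 libraries for 205 (50.7%, against 6.25% of all genes tested), and among the 770 they lay below the other 9 for 385 (against 7.91% of all). The 3 high PFC libraries stood apart from the other 9 below them for 109 of the 404 (3.66% of all genes tested) and above them for 227 of the 770 (5.03% of all). HPF high libraries stood above the other 9 for 23 of the 404 (1.83% of all) and HPF low libraries below them for 66 (2.62% of all). For the 770, HPF high libraries stood below the other 9 for 114 (14.8%, against 3.9% of all) and HPF low libraries above them for 113 (14.7%, against 3.0%). The high and low libraries of a tissue did not overlap for 30.8% of all genes tested in PFC (17.1% high above low, 13.7% below) and for 20.0% in HPF (8.55% above, 11.5% below). These groups are the ones that gave the interaction, so the counts describe the genes and are no test.

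Rpl22l1 had the largest negative interaction relative to its error. Rpl22l1 (GRCm38 chromosome 3, 28805436 to 28807424, plus strand) encodes a paralog of the ribosomal protein Rpl22. Normalized counts were 2342, 2663 and 2396 in PFC high, 640, 606 and 661 in PFC low, 2393, 2833 and 2624 in HPF high and 2312, 2017 and 2545 in HPF low. Only the 3 low PFC libraries were low, and the HPF groups overlapped. In PFC it was 3.88-fold higher in high performers (log2 difference 1.95, SE 0.10), in HPF the log2 difference was 0.19 (SE 0.10, adjusted p = 0.457), and the interaction was -1.76 (SE 0.15, adjusted p = 0.00104).

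Sdc3, a syndecan that carries heparan sulfate on neurons, mirrored it. Sdc3 (chromosome 4, 130792537 to 130826319, plus strand) held 8740, 8264 and 8086 normalized counts in PFC high, 17653, 15813 and 14965 in PFC low, 8843, 8536 and 8906 in HPF high and 7382, 7454 and 7562 in HPF low. Its PFC low libraries were 1.93-fold above its PFC high libraries, while in HPF the high libraries were the higher ones by a difference that did not pass (adjusted p = 0.183). The interaction was 1.18 (SE 0.10, adjusted p = 0.00104). Ewsr1, an RNA-binding protein of the FET family, held 7265, 7943 and 6727 in PFC high, 16280, 14934 and 16740 in PFC low, 11087, 10039 and 9845 in HPF high and 10545, 10351 and 10923 in HPF low. Its HPF groups overlapped and its PFC groups did not, which gave an interaction of 1.09 (SE 0.11, adjusted p = 0.00199). Smim7, a small membrane protein, showed the reverse order, with 4552 to 5160 in PFC high, 2576 to 2731 in PFC low and 4024 to 4747 over the 6 HPF libraries (interaction -0.96, SE 0.10, adjusted p = 0.00199).

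The other genes with the smallest p in the positive direction were also lower in PFC of high performers. Nfia, a transcription factor of glia and neurons, held 1761 to 1896 normalized counts in PFC high and 3307 to 3708 in PFC low, against 1829 to 2398 over HPF (interaction 1.13, adjusted p = 0.00199). The Max-binding repressor Mnt (0.94, adjusted p = 0.00683), Ttc17 (1.00, adjusted p = 0.00683), the RNA-binding protein Pcbp3 (0.83, adjusted p = 0.00838) and Btbd1 (0.70, adjusted p = 0.00838) fell in PFC of high performers, with HPF differences of at most 0.13 in size. Atp1b2, a subunit of the sodium pump, fell by 0.80 in PFC and had an HPF difference of 0.30 (interaction 1.09, adjusted p = 0.00838). Lef1, a transcription factor of the Wnt pathway that also stands in the list of thalamic markers, held 93.5 to 114 in PFC high, 276 to 496 in PFC low, 129 to 293 in HPF high and 73.4 to 104 in HPF low (interaction 2.90, adjusted p = 0.00862). Rps12l1, a near-identical copy of a ribosomal protein gene whose reads are uncertain, was read only in the PFC low libraries, at 36.8, 81.4 and 150, and was at 0 in the other 9. In the negative direction, Arpc4, a subunit of the actin-nucleating Arp2/3 complex, held 5654 to 5772 in PFC high, 3485 to 3871 in PFC low, 5419 to 5976 in HPF high and 6746 to 7211 in HPF low (interaction -0.92, adjusted p = 0.00199). Atp6v1h, a subunit of the proton pump of vesicles and lysosomes, had an interaction of -1.14 (adjusted p = 0.00352).

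**Figure D2:**
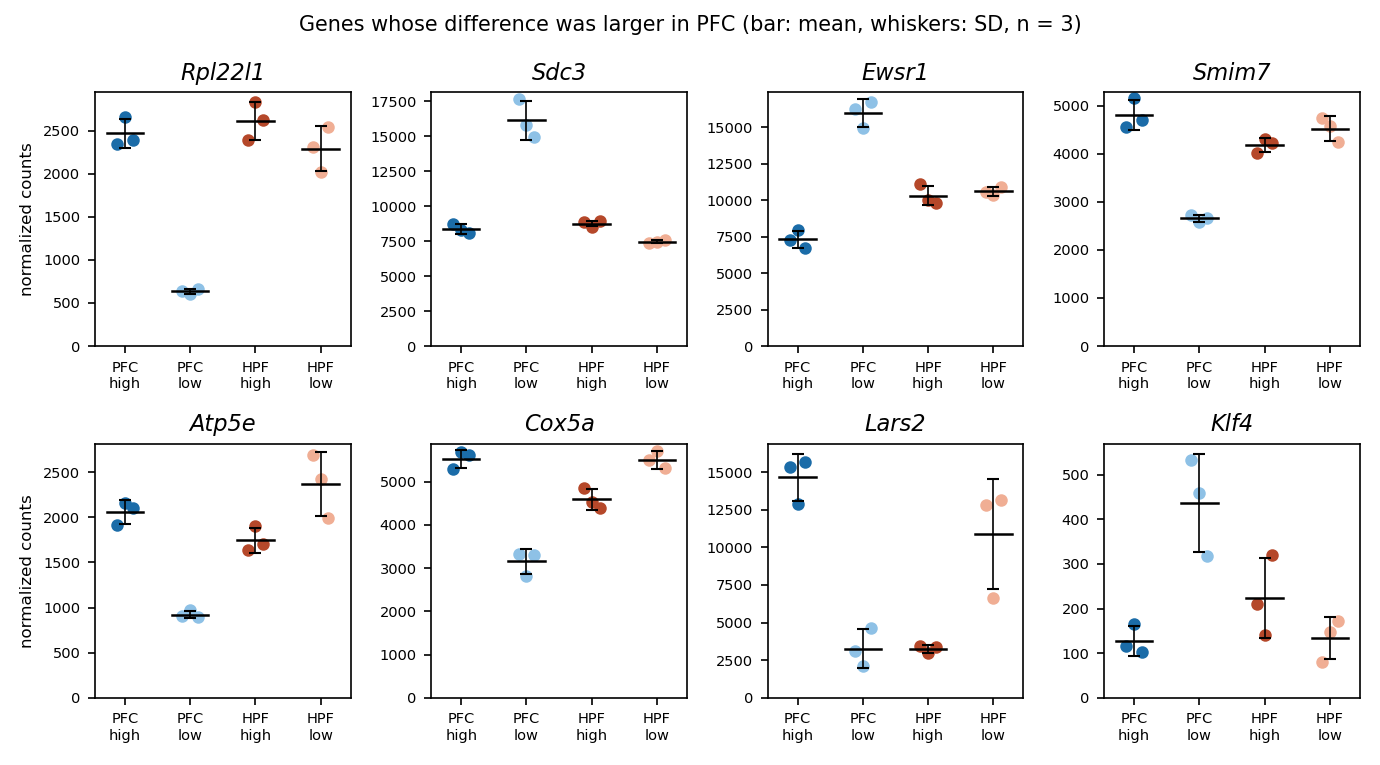
Normalized counts (y axis, from 0) of 8 genes in the 3 libraries of each group, with the mean as a bar and the SD as whiskers (n = 3). In Rpl22l1, Smim7, Atp5e and Cox5a the PFC low libraries lie below the other 9, and in Sdc3 and Ewsr1 above them.

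The libraries of the third tissue gave a side view of these genes. MDTH low libraries carry the numbers 130, 163 and 6 and share the name style of the PFC low libraries, so that number 130 occurs in PFC low and number 163 in HPF low. Rpl22l1 held 2634, 2655 and 2295 normalized counts in MDTH high and 869, 952 and 920 in MDTH low. The library with number 163 was therefore at 952 in MDTH, below all 9 libraries outside PFC low, whereas the HPF library with that number was at 2312, where HPF high libraries held 2393 to 2833. For Sdc3 the number 163 libraries held 34291 in MDTH, where high performers held 17738 to 19259, and 7382 in HPF, where high performers held 8536 to 8906. Of the 205 genes with PFC low above the other 9, MDTH low also lay above MDTH high for 163 (79.5%, against 21.5% of all genes tested). Of the 385 genes with PFC low below the other 9, MDTH low lay below MDTH high for 327 (84.9%, against 21.8%). The PFC and MDTH groups share the numbers 44, 88, 165 and 130, so the tissues are not independent, and which of tissue, animal and preparation this followed was not tested.

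Nuclear genes of the respiratory chain often had a negative interaction. Of 75 members tested, 37 did (49.3%, against 4.25% of all genes) and 0 had a positive one, with a median of -0.44 on the log2 scale against 0.01 for all genes. In PFC 39 members were higher (6.63% of all genes were) and 1, Ndufa10, was lower in high performers (median 0.31), and in HPF 1, Atp5g1, was lower (median -0.11). With the name number as a block 44 members passed, and between 19 (without replicate 2 of PFC high) and 36 passed when 1 library was left out, with 22 without replicate 1 of HPF low and 24 without replicate 3 of PFC low. All complexes held members that passed. Complex I, which oxidizes NADH, had 16 of 36 members past the threshold, complex II, succinate dehydrogenase, 4 of 4, complex III, which passes electrons to cytochrome c, 4 of 9, complex IV, cytochrome c oxidase counted with Ndufa4, 4 of 11, and complex V, ATP synthase, 9 of 14. Among the complexes the median interaction ran from -0.51 in complex V to -0.38 in complex III. Many of these genes have processed copies elsewhere in the genome, and how shared reads were counted was not given in the sources used here, so single members are uncertain.

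Atp5e, the epsilon subunit of ATP synthase, held 1914, 2162 and 2103 normalized counts in PFC high, 904, 969 and 894 in PFC low, 1632, 1900 and 1704 in HPF high and 2691, 2425 and 1989 in HPF low. The order of high and low was reversed between the tissues without overlap in either, although the HPF difference alone did not pass (adjusted p = 0.115). The interaction was -1.59 (SE 0.16, adjusted p = 0.00199). Cox5a, a subunit of cytochrome c oxidase, behaved alike, with 5529 ± 204 in PFC high, 3157 ± 287 in PFC low, 4591 ± 238 in HPF high and 5510 ± 205 in HPF low (SD, n = 3 each). Its HPF difference alone did not pass (adjusted p = 0.176), and its interaction was -1.08 (SE 0.11, adjusted p = 0.00199). Ndufa4 (interaction -0.999, adjusted p = 0.00352), Uqcrfs1, the Rieske iron-sulfur protein (-0.90, adjusted p = 0.00272), and Atp5g3, a subunit of the rotor ring of ATP synthase (-0.84, adjusted p = 0.00199), followed. Atp5g1, which encodes the same ring protein, was the member whose HPF difference also passed. It fell by 0.49 in HPF of high performers (adjusted p = 0.0344) and was higher by 0.37 in PFC (adjusted p = 0.0231), an interaction of -0.87 (adjusted p = 0.00838).

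Because these nuclear genes moved together, their upstream sequence was searched on both strands for elements known from respiratory genes and from activity-driven transcription. RefSeq start sites (GRCm38.p6) gave the 250 bases upstream for 63 of the 75 members. The cAMP response element TGACGTCA, bound by CREB, stood there in 5 of 63 (7.94%), against 1.77% of all 27025 genes with a RefSeq upstream sequence. The palindromic site of nuclear respiratory factor NRF1 stood in 4 of 63 (6.35%) against 0.877%. The 27025 were not limited to the genes tested here, whereas the list members were. The CArG box of serum response factor stood in 0 of 63 (1.62% of all). The same search covered 25 proteasome and 30 immediate-early genes, lists described below. The cAMP response element stood in 0 of 25 and 3 of 30. The NRF1 site stood in 1 of 25 and 0 of 30, and the CArG box in 1 of 25 and 2 of 30. Whether these elements go with the interaction was not tested. The 3 respiratory members with a cAMP response element or an NRF1 site that also passed the interaction are shown. They run 5′ to 3′ up to the base before the start site, with the element in capitals. A match is a run of letters and says nothing about binding in these tissues.
Uqcrfs1 (chr13:30545317-30545566, minus strand, TGACGTCA at -29 to -22): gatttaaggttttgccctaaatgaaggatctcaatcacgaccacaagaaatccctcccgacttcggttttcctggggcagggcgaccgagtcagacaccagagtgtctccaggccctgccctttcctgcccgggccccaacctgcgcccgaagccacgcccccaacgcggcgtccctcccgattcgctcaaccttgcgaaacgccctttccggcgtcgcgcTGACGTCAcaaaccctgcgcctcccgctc
Ndufb2 (chr6:39592315-39592564, plus strand, TGACGTCA at -14 to -7): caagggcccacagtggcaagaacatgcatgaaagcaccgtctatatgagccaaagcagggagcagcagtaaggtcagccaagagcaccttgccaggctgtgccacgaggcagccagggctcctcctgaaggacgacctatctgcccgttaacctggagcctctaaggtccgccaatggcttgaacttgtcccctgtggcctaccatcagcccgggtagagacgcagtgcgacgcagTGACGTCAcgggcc
Atp5k (chr5:108434400-108434649, minus strand, NRF1 site at -50 to -41): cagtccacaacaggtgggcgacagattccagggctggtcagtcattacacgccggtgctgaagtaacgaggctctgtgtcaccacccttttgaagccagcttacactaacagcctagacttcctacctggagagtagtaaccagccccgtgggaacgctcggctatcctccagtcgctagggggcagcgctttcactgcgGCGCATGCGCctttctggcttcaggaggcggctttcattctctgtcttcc

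The 3 genes with these sequences differed in how HPF behaved. Ndufb2, a subunit of complex I, held 2514 to 2950 normalized counts in PFC high, 1395 to 1720 in PFC low, 2502 to 2751 in HPF high and 2925 to 3243 in HPF low. Its groups were apart in both tissues in opposite order, although its HPF difference alone did not pass (interaction -1.01, adjusted p = 0.00674). Uqcrfs1 held 4433 to 5113, 2573 to 2756, 4827 to 5133 and 5028 to 5378 in the same order of groups, and its HPF groups overlapped. Atp5k held 3181 to 3926, 2329 to 2526, 3014 to 3479 and 3096 to 3506, again with overlap in HPF (interaction -0.59, adjusted p = 0.0299). The other members with an element (Ndufa10, Ndufa11, Cycs, Cox6a1 and Atp5g2) did not pass.

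Genes of the mitochondrial genome went the other way. Of 13 protein-coding members, 7 had a positive interaction (53.8%, against 2.23% of all genes) and 0 a negative one (median 1.14), with 7 lower in PFC of high performers (against 5.32% of all genes, median -0.78) and 0 that passed in HPF by limma (median 0.42). mt-Atp8, a subunit of ATP synthase, held 74122, 69067 and 70965 normalized counts in PFC high, 140566, 133901 and 127782 in PFC low, 135586, 102785 and 162887 in HPF high and 91394, 98562 and 104424 in HPF low. Low performers were thus the higher in PFC, and in HPF the high performers had the higher mean with overlap (interaction 1.33, SE 0.20, adjusted p = 0.00867). mt-Nd5, a subunit of complex I, had an interaction of 1.22 (SE 0.23, adjusted p = 0.0159), which was 0.58 and did not pass (adjusted p = 0.234) when the libraries were quantile normalized. Under that setting 2 of the 13 passed. Of the 13, 2 passed also without replicate 2 of PFC high or replicate 1 of HPF low, 3 without replicate 3 of PFC low and 4 without replicate 3 of PFC high. The short genes mt-Nd3 (-1.48, adjusted p = 0.428) and mt-Nd4l (-0.96, adjusted p = 0.357) had negative values that did not pass. Nuclear copies of mitochondrial sequence can share reads with these genes.

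Together, genes with mt- symbols made up 5.59%, 5.25% and 5.44% of all counts in PFC high, 8.39%, 8.25% and 8.79% in PFC low, 7.19%, 6.51% and 8.63% in HPF high and 4.66%, 6.25% and 6.14% in HPF low. The share was lower in high performers in PFC and higher in high performers in HPF, with no overlap in either tissue. The difference of the 2 effects was 4.81 percentage points (exact permutation test within tissues, two-sided, p = 0.005, the smallest that 400 arrangements allow, 0.0075 adjusted over only the 3 shares given here). The share of the 10 most abundant genes moved alike, by 5.44 points (p = 0.005, adjusted 0.0075, exact permutation test). Without mt- genes it moved by 2.13 points (p = 0.01, adjusted 0.01, exact permutation test), and replicate 3 of HPF high was then the highest at 8.33% against 4.44% to 6.55% in the other 11 libraries. These shares moved with the interaction, and their part in the results of single genes and lists was not tested. The same permutation test was also run on the summed share of each gene list, outside the adjustment over 3 shares. The adjusted values are therefore too low for the full set of shares tested.

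Lars2, the mitochondrial leucyl-tRNA synthetase, had the largest negative interaction in size among the 10 negative genes with the smallest p. Lars2 (chromosome 9, 123366927 to 123462666, plus strand) held 15355, 12884 and 15691 normalized counts in PFC high, 3095, 2084 and 4624 in PFC low, 3460, 2961 and 3368 in HPF high and 12801, 6637 and 13127 in HPF low. The groups were apart in both tissues in opposite order. It was 4.48-fold higher in PFC and 3.33-fold lower in HPF in high performers, and both passed (PFC 2.23, adjusted p = 0.00152, HPF -1.67, adjusted p = 0.0272, interaction -3.90, SE 0.41, adjusted p = 0.00199). The mouse gene holds a stretch that resembles the mitochondrial 16S ribosomal RNA, mt-Rnr2, so its reads are uncertain. The value for mt-Rnr2 was 0.24 (adjusted p = 0.779), and the part of shared reads in the Lars2 result was not tested.

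**Figure D3:**
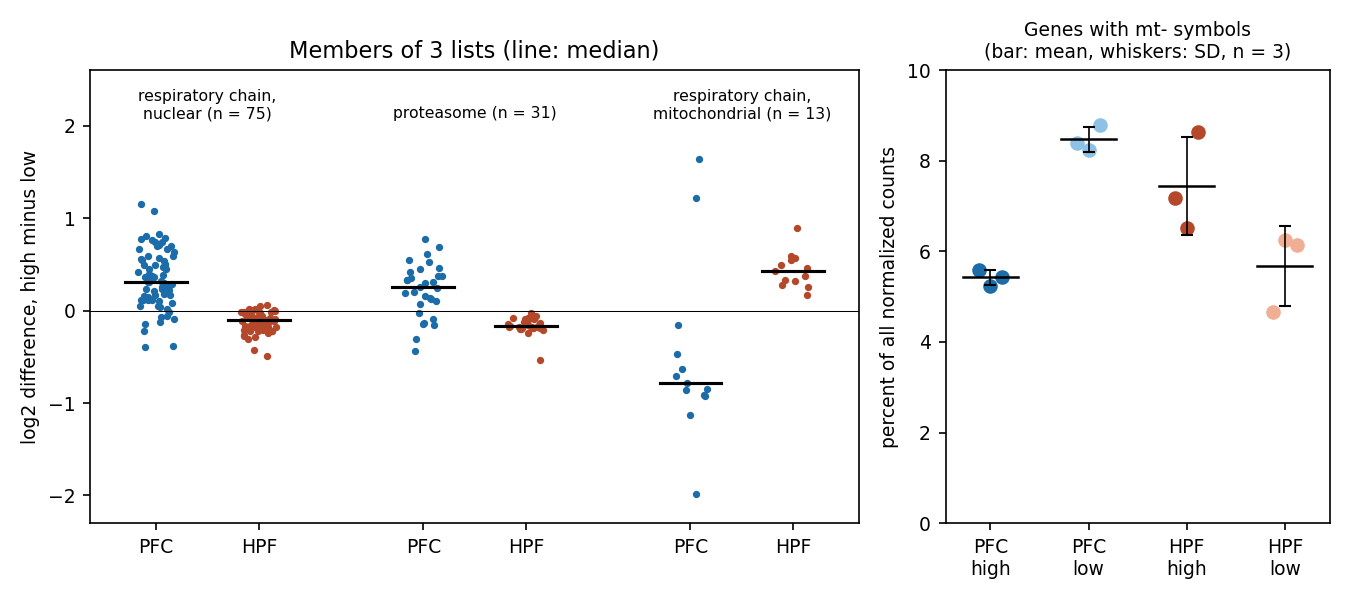
Left, log2 difference of high minus low performers in PFC and HPF for the members of 3 lists, 1 point per gene and the median as a line. Right, genes with mt- symbols as percent of all normalized counts in each library, with mean and SD (n = 3). Nuclear respiratory and proteasome genes lie mostly above 0 in PFC and below 0 in HPF, mitochondrial genes the reverse.

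The proteasome, which degrades ubiquitin-tagged proteins, followed the nuclear respiratory genes. Of 31 subunits 14 had a negative interaction (45.2%, against 4.25% of all genes) and 0 a positive one (median -0.38). In PFC 14 were higher (6.63% of all genes were) and 2 lower (5.32%) in high performers, and in HPF 0 passed by limma (median -0.16). Psmb4, a subunit of the catalytic core, held 4517 ± 330 normalized counts in PFC high, 2643 ± 80.3 in PFC low, 4050 ± 114 in HPF high and 4296 ± 173 in HPF low (SD, n = 3 each, interaction -0.86, adjusted p = 0.00376). Psmd6, of the regulatory cap, had an interaction of -0.82 (adjusted p = 0.00560). The count was 8 without replicate 2 of PFC high and 9 without replicate 3 of HPF high, replicate 1 of HPF low, replicate 3 of PFC high or replicate 3 of PFC low. Of 80 cytosolic ribosomal proteins, 4 were negative, Rpl22l1, Rpl24, Rpl39 and Rps20 (4.25% of all genes were), with a median of -0.12. In PFC 18 were higher (6.63% of all genes) and 3 lower (5.32%) in high performers. The interaction count was 2 without replicate 1 of HPF high, replicate 1 or 3 of HPF low, replicate 2 or 3 of PFC high or replicate 3 of PFC low, and 7 without replicate 1 of PFC high. It was 9 with the block and 12 in the fit to all 18 libraries, 1 of them positive in each, and 13 with array weights. Rpl39 (-1.09, adjusted p = 0.0146) held 1655 to 2231 in PFC high and 851 to 935 in PFC low. Splicing factors went both ways among 53 tested (median 0.01). Srsf2, Snrpd3 and Ewsr1 were positive (5.66%, against 2.23% of all genes). Hnrnpa0, Hnrnpa1, Snrpd2 and Snrpe were negative (7.55%, against 4.25%). Hnrnpa0 had an interaction of -0.75 (adjusted p = 0.00683).

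Transcript length and GC content moved with the call. The median length was 3951 bases for the 404 positive, 2532 for the 770 negative and 2901 for all genes tested, and genes under 1000 bases had a median difference of 0.16 in PFC and 0.02 in HPF. With each library's dependence on length and GC removed, a setting chosen after the data were seen, 1254 genes passed (6.91%), 348 of them positive (1.92%), and 302 of the 404 and 681 of the 770 still passed, and 35 nuclear respiratory and 13 proteasome genes did.

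Of 39 immediate-early genes, 10 were lower in PFC of high performers (5.32% of all genes were) and 29 did not pass there. The interaction passed for 2, Klf4 and Nr4a2 (5.13%, against 2.23% of all genes). Over all 39 members the median interaction was 0.60, with a median of -0.65 in PFC and of -0.03 in HPF, where 0 passed by limma. Klf4, a transcription factor, held 116, 166 and 102 normalized counts in PFC high, 533, 459 and 318 in PFC low, 210, 141 and 320 in HPF high and 80.2, 148 and 172 in HPF low. Only in PFC were the groups apart (interaction 2.50, SE 0.51, adjusted p = 0.0211). Nr4a2, a nuclear receptor induced by activity, held 589 to 914 in PFC high, 1841 to 4794 in PFC low, 1014 to 1703 in HPF high and 815 to 1258 in HPF low (2.24, SE 0.48, adjusted p = 0.0238). Both calls were lost without replicate 1 of HPF low (adjusted p = 0.0502 and 0.0525), that of Klf4 without replicate 3 of PFC high (0.0513), and that of Nr4a2 without replicate 3 of HPF high (0.0590), without replicate 2 of PFC high (0.0639) and in the fit to all 18 libraries (0.0705). With the name number as a block 7 members were positive and 1, the neurotrophin gene Bdnf, negative. Among list members given as examples, Egr2, a zinc-finger factor, was 6.10-fold higher in PFC low than in PFC high and had an interaction of 2.80 (adjusted p = 0.0790, and 0.0321 with the block). Fos held 645 to 752 in PFC high, 1586 to 6786 in PFC low, 155 to 270 in HPF high and 152 to 603 in HPF low, so that low performers had the higher mean in both tissues and the interaction of 1.63 did not pass (adjusted p = 0.239).

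Lists of genes that respond to time of day and hormones, and the H2 class I list, held 2, 1 and 1 positive calls (11.1%, 5.88% and 6.25%, against 2.23% of all genes) and 0 negative ones by limma. Of 18 clock genes, Bhlhe41, a repressor of the clock, was positive at 1.40 (adjusted p = 0.0160), as was Npas2, a partner of the clock activator, at 0.73 (adjusted p = 0.0496, not past the threshold in 16 of 27 other settings). Per1 (1.16, adjusted p = 0.0638) was lower in PFC of high performers and passed the interaction with the block (adjusted p = 0.0250). Of 17 glucocorticoid-responsive genes, Pdk4, an inhibitor of pyruvate dehydrogenase, was positive at 1.53 (adjusted p = 0.0165), with 511 to 582 normalized counts in PFC high and 926 to 1317 in PFC low. Of 16 H2 class I genes, 1 passed, their light chain B2m (1.56, adjusted p = 0.0218). B2m held 1904 to 2149 in PFC high and 3238 to 7015 in PFC low, with 7015 in replicate 2. Its call was lost without replicate 3 or replicate 2 of PFC high (adjusted p = 0.0517 and 0.0528), replicate 3 of HPF high (0.0544) or replicate 1 of HPF low (0.0595). H2-Q1, at 1.88, did not pass (adjusted p = 0.329).

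In a smaller set the difference lay in HPF. Of the 1174 genes, 109 also differed between high and low performers within HPF, and 105 of them did so without passing in PFC, 38 with a positive and 67 with a negative interaction. Epha5, a receptor for ephrins in axon guidance (chromosome 5, 84054761 to 84417382, minus strand), held 6144, 5751 and 5476 normalized counts in PFC high, 5345, 4439 and 4673 in PFC low, 7733, 8627 and 6471 in HPF high and 15333, 14754 and 13132 in HPF low. The HPF low libraries stood above all others, 1.89-fold over HPF high (HPF difference -0.93, adjusted p = 0.00710, interaction -1.20, SE 0.16, adjusted p = 0.00636). Tmem9, a membrane protein of lysosomes, had the same layout (interaction -0.80, adjusted p = 0.00822). Of the HPF lanes, lane 3 held only high and lane 5 only low libraries, and lane 4 held 1 of each, so for 4 of the 6 HPF libraries lane and performance cannot be told apart. The 185 genes that differed in HPF became 21 without replicate 3 and 92 without replicate 2 of HPF high, 44 without replicate 1 and 76 without replicate 2 of HPF low, 96, 78 and 98 without replicates 1, 2 and 3 of PFC high, and 82 without replicate 3 of PFC low, since the fit shares 1 spread.

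The title of the series names an orphan receptor, a receptor without an established ligand. Gpr12, one of these, was measured in both tissues and its interaction did not pass. Gpr12 raises cAMP in the cell. It held 619, 721 and 672 normalized counts in PFC high, 757, 501 and 620 in PFC low, 1424, 1452 and 1462 in HPF high and 1446, 1550 and 1649 in HPF low. The groups overlapped in both tissues, and the interaction was -0.21 (95% interval -0.64 to 0.21, adjusted p = 0.543). Of 37 receptors in this list 5 passed, 2 with a positive (5.41%, against 2.23% of all genes) and 3 with a negative interaction (8.11%, against 4.25%). Gpr161, which restrains Hedgehog signalling at the cilium (chromosome 1, 165295789 to 165326745, plus strand), held 690, 505 and 483 in PFC high, 695, 432 and 654 in PFC low, 2754, 3421 and 3416 in HPF high and 692, 1019 and 509 in HPF low. Only the HPF high libraries were high, 4.32-fold over HPF low, and the interaction was 2.23 (SE 0.36, adjusted p = 0.0111). Gpr101 was also higher in HPF high (157 to 235) than in HPF low (24.9 to 44.7) or PFC (21.2 to 36.1), while Gpr26 fell in HPF of high performers (2992 to 4369 against 6973 to 8919, interaction -1.48, adjusted p = 0.0118).

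Markers of hippocampal fields differed within HPF between the performance groups, in opposite directions. Of 14 hippocampal markers, Fibcd1 had a positive (7.14%, against 2.23% of all genes) and Bok and Iyd a negative interaction (14.3%, against 4.25%). Within HPF, Wfs1 and Fibcd1 were higher (0.369% of all genes were) and Grik4, Bok and Iyd lower (0.651%) in high performers. Fibcd1 and Wfs1 mark CA1 pyramidal cells, whereas Grik4, Bok and Iyd mark CA3. Fibcd1 held 6190, 5064 and 7333 normalized counts in HPF high and 1036, 1994 and 1202 in HPF low, a 4.39-fold difference, against 205 to 417 in PFC (interaction 1.93, SE 0.40, adjusted p = 0.0209). Iyd held 59.7, 74.8 and 69.6 in HPF high and 489, 521 and 388 in HPF low, 6.85-fold more in low performers, and 0.901 to 5.14 in PFC (interaction -3.04, SE 0.59, adjusted p = 0.0179). Bok held 2327, 2156 and 952 in HPF high and 6121, 4277 and 4476 in HPF low (interaction -2.18, adjusted p = 0.0202). Wfs1 (interaction 1.45, adjusted p = 0.149) and Grik4 (-1.21, adjusted p = 0.0576, and 0.0288 with the block) did not pass the interaction. Prox1 overlapped between the HPF groups. In bulk tissue, fewer cells of a type and less RNA per cell cannot be told apart, and whether the fields were dissected in equal proportion was not tested. Of the 3 calls in this list 0 were left without replicate 1 of HPF low, 1 without replicate 2 of PFC high and 2 without replicate 3 of HPF high.

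Among 15 cortical markers 2 passed, both with a positive interaction (13.3%, against 2.23% of all genes). Bcl11b, a transcription factor of deep-layer neurons, was one of them (0.61, adjusted p = 0.0335). The 15 cortical markers summed to 0.0685% to 0.0753% of counts in HPF high and 0.0595% to 0.0695% in HPF low, and their part in the HPF differences was not tested.

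**Figure D4:**
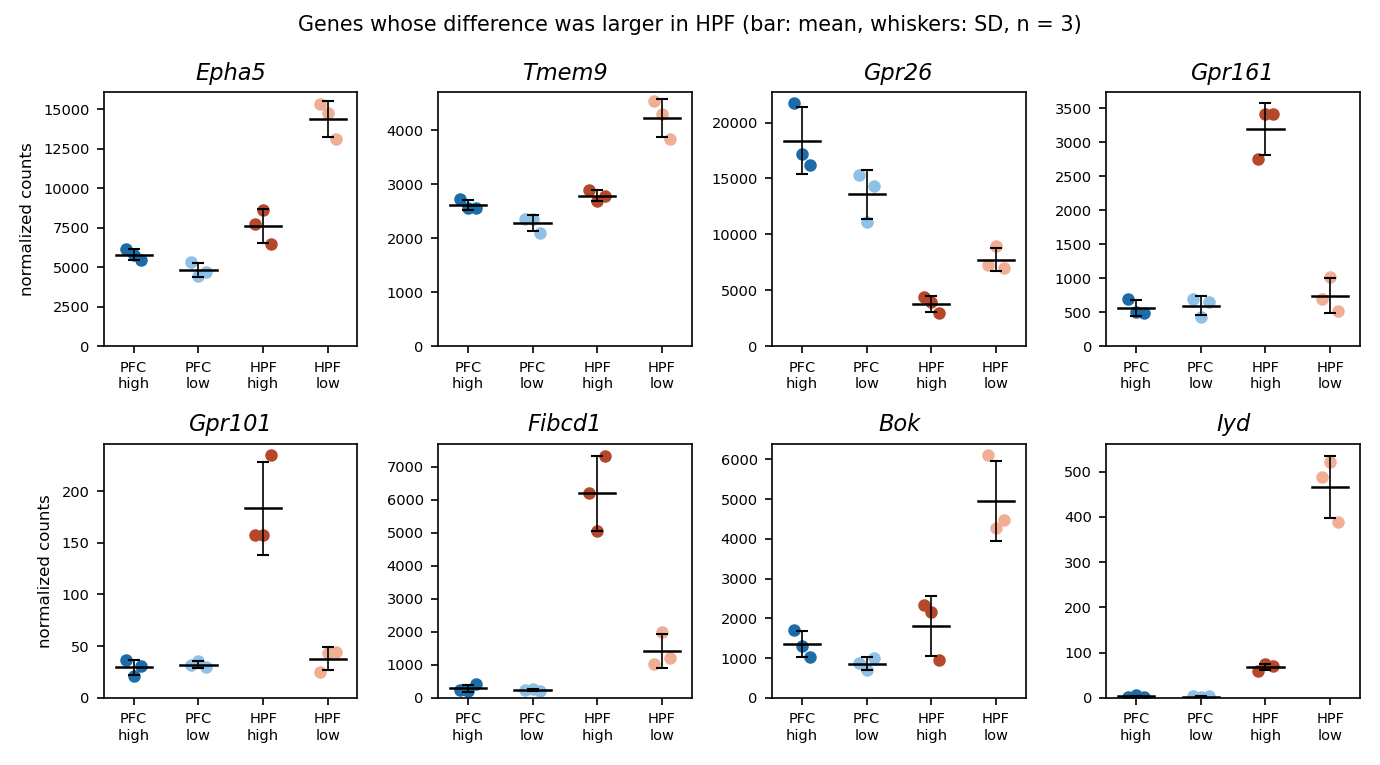
Normalized counts (y axis, from 0) of 8 genes in the 3 libraries of each group, with the mean as a bar and the SD as whiskers (n = 3). Gpr161, Gpr101 and Fibcd1 were higher in HPF high than in HPF low, and Epha5, Tmem9, Gpr26, Bok and Iyd lower.

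Genes of synaptic vesicle release tended to negative values. Of 24, 4 passed (Syn2, Snap25, Sv2a and Sv2b, 16.7% against 4.25% of all genes, median -0.44), and in HPF 3 fell in high performers (Snap25, Sv2b and Slc17a7, against 0.651% of all genes, median -0.47). Snap25, a membrane SNARE protein of release sites, held 104008, 94786 and 73078 normalized counts in HPF high and 180242, 160596 and 144994 in HPF low, against 205352 to 243292 in PFC (interaction -0.72, SE 0.19, adjusted p = 0.0496). Sv2b, a vesicle glycoprotein, held 5945 to 11631 in HPF high, 16031 to 25403 in HPF low, 48488 to 49435 in PFC high and 31765 to 38636 in PFC low (-1.61, SE 0.33, adjusted p = 0.0211). Syn2, a synapsin, had an interaction of -0.95 (adjusted p = 0.0345). These calls rested on single libraries: 0 of the 24 passed without replicate 1 of HPF low, replicate 2 of PFC high or replicate 3 of PFC low, 1 without replicate 3 of HPF high, replicate 2 of HPF low, replicate 1 of PFC high or replicate 2 of PFC low, and 2 without replicate 2 of HPF high or replicate 3 of PFC high.

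Among receptors, kinases and channels, calls were 0 to 3 in each list. For comparison, 2.23% of all genes tested were positive and 4.25% negative. In 15 NMDA, AMPA and kainate receptor genes 0 passed by limma (the smallest p were those of Grik4 and Gria3, the latter -0.38 with adjusted p = 0.153), as in 7 metabotropic glutamate receptors (Grm7 -0.69, adjusted p = 0.0790, Grm3 0.34, adjusted p = 0.445), 33 receptors for monoamines and acetylcholine (Htr1b 2.26, adjusted p = 0.0734, Htr2a -1.11, adjusted p = 0.0741) and 19 neuropeptide precursors (Penk 1.13, adjusted p = 0.0717, Trh 2.21, adjusted p = 0.114). Of 15 GABA receptor genes 1 passed, with a negative interaction (6.67%). Gabra3, which did not pass, was at 0.86 (adjusted p = 0.0755). Htr1b, a serotonin receptor, was higher in HPF of high performers, at 319 to 636 against 58.7 to 208 normalized counts. In 32 cAMP genes 1 was positive and 1 negative (3.12% each). Rapgef3, a cAMP-driven exchange factor, was at 0.97 (adjusted p = 0.0201) and Pde4b, which degrades cAMP, at -0.70 (adjusted p = 0.0176). Without replicate 1 of HPF low these were at adjusted p = 0.0557 and 0.0502, and Rapgef3 was at 0.0572 without replicate 2 of PFC high. Of 30 scaffold and kinase genes 2 were negative (6.67%), among them Camkk1 (-0.60, adjusted p = 0.0477), a call lost in 16 of 27 other settings. Of 35 potassium channels 1 was negative (2.86%) and 2 were positive (5.71%). Kcnh1 was at -0.85 (adjusted p = 0.0108), Kcnn3 at 0.74 (adjusted p = 0.0209) and Kcnj10 at 0.62 (adjusted p = 0.0357). Without replicate 3 of HPF high, replicate 1 of HPF low, replicate 3 of PFC high or replicate 3 of PFC low, Kcnn3 was at adjusted p = 0.0504 to 0.0534. Kcnh1 did not pass in the fit to all 18 libraries (adjusted p = 0.141).

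Among markers of non-neuronal cells, 4 of 13 microglial genes passed, P2ry12, C1qa, C1qb and Itgam, all positive (30.8%, against 2.23% of all genes, median 0.63) and all lower in PFC of high performers (against 5.32% of all genes). Itgam, an integrin of microglia, held 614, 809 and 824 normalized counts in PFC high, 1467, 1428 and 1563 in PFC low, 1248, 831 and 1577 in HPF high and 714, 721 and 1097 in HPF low (1.51, SE 0.33, adjusted p = 0.0253). Summed over the 13 genes the share of counts was 0.0352% to 0.0430% in PFC high, 0.0407% to 0.0551% in PFC low, 0.0513% to 0.0703% in HPF high and 0.0438% to 0.0563% in HPF low. No microglial gene passed without replicate 1 of HPF low or replicate 3 of PFC low (0 each by limma), 1 did without replicate 3 of HPF high, replicate 2 of HPF low or replicate 2 of PFC high, and 2 without replicate 3 of PFC high or replicate 2 of PFC low. In the lists for astrocytes (14), oligodendrocytes (15), their precursors (9), endothelial and mural cells (15), choroid plexus (13), meninges (10), blood (5), inhibitory (15) and striatal (13) neurons and sex-specific genes (4), 0 genes passed by limma, although the medians were positive in all but the inhibitory list and reached 3.07 in choroid plexus. With the name number as a block 6 astrocyte genes passed. Of 13 thalamic markers Lef1 passed, with a positive interaction (7.69%, against 2.23% of all genes). The summed share of choroid plexus genes ran from 0.00398% to 0.331%, led by the 4 libraries high in Ttr. Without replicate 2 of HPF high, the library also high in Tcf7l2, 1131 genes passed, with 33 nuclear respiratory, 13 proteasome, 8 mitochondrial and 5 microglial genes among them.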

How the data were processed

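The deposited table held 1 signal per gene and library, gene counts normalized by the authors, per the file headers and its name. STAR, Salmon and DESeq2 were named without roles or versions, per the submitters' processing notes. The sources used here state neither the build nor the annotation, nor whether reads were counted by strand. Because the values were normalized, count tests were not run. Column totals were 50828589 to 59634490. For the depth of a library, its commonest low value was taken as 1 read. Log2(normalized count + 1) was fitted with limma 3.58.1 in R 4.3.3, with 4 group means over 12 libraries and a mean-variance trend, a two-sided moderated test and Benjamini-Hochberg adjustment over all 18136 genes, and each adjusted p of a gene comes from this fit or, where a block, a left-out library or another setting is named, from the same test in that fit. Genes with an adjusted p below 0.05 passed. The scale understates changes of low genes. The fit was tested on simulated data. Genes were named by a rule: Gpr12, the smallest p in each direction, among genes also passing in HPF and with opposite signs, and 2 per pathway list. A few are not reported here. Others are list members or were chosen after their values were seen. The members and the 33 lists (19 pathways, 14 marker lists) were chosen with earlier results of these data known. Coordinates, lengths and GC are from GENCODE M21 (GRCm38).

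The labels do not say that libraries come from separate animals, so p-values measure only the spread between these libraries. Whether name numbers pair libraries was checked by correlating deviations from group means. The pairs with equal numbers, between the high groups, had 0.62, 0.59 and 0.56, so the numbers were taken to pair them. All other pairs of the high groups were negative. Deviations from a group mean cancel out within the group, so these negative values follow in part from the positive ones. The block correlation was 0.46. Alternatives were other pseudocounts, filters, normalizations, weights, blocks, lanes, all 18 libraries, and leaving out each library.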

Additional observations from a re-analysis of the deposited data

Results flagged for a closer look

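The effect of performance differed between HPF and PFC, by limma's test of the difference itself, for 1174 genes. Among those named by the rule, the positive interactions on the log2 scale were Sdc3 1.18, Nfia 1.13, Ewsr1 1.09, Rps12l1 6.28, Mnt 0.94, Ttc17 1.00, Atp1b2 1.09, Pcbp3 0.83, Btbd1 0.70, Lef1 2.90 and Klf4 2.50. Further positive interactions were Nr4a2 2.24, mt-Atp8 1.33, mt-Nd5 1.22, Rapgef3 0.97, Kcnn3 0.74, Gpr161 2.23, Pdk4 1.53, Bhlhe41 1.40, Npas2 0.73 and B2m 1.56. The negative interactions, with the lower value in HPF of high performers relative to PFC, were Rpl22l1 -1.76, Atp5e -1.59, Arpc4 -0.92, Cox5a -1.08, Lars2 -3.90, Atp5g3 -0.84, Smim7 -0.96, Uqcrfs1 -0.90, Atp6v1h -1.14, Ndufa4 -0.999, Epha5 -1.20 and Tmem9 -0.80. Further negative interactions were Atp5g1 -0.87, Rpl39 -1.09, Psmb4 -0.86, Psmd6 -0.82, Hnrnpa0 -0.75, Pde4b -0.70, Camkk1 -0.60, Sv2b -1.61, Syn2 -0.95 and Kcnh1 -0.85. The value of Rps12l1, which was at 0 in 9 libraries, depends on the pseudocount and is no fold change. By the exact permutation test within tissues, the difference of the 2 effects was 4.81 percentage points for genes with mt- symbols, 5.435 for the 10 most abundant genes and 2.13 for the 10 most abundant genes without mt- symbols.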

How the results depend on the processing

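No gene named by the rule reversed its interaction in any of 27 other settings, and each of these settings except lane 4 kept at least 35 of the 46 that passed. The interaction count of 1174 was 2932 with array weights, 780 with no filter on low values and 611 without the trend, and the cause was not tested. With only the HPF libraries of lane 4, where each HPF group is 1 library assumed to vary like the others, it was 21, and 3 of the 46 kept their call. With a replicate block on the name number it was 2165 (PFC 2003, HPF 131), and no call among the 46 was lost. The numbers #1 to #3 of the labels correlated between -0.13 and 0.08 between performance groups, so they share only a number, and as a block gave 886, 1861 and 150. PFC counts were 5068 with array weights and 1023 with lane 4 only, and HPF counts 36 with lane 4 only, 114 with no filter and 49 without the trend. Leaving out 1 library gave 381 to 1230 for the interaction, 1014 to 2078 for PFC and 21 to 192 for HPF, with fewer samples in each fit. For PFC the lowest were 1014, 1080 and 1176, without replicate 2 of PFC high, replicate 3 of PFC low and replicate 3 of PFC high. Pseudocounts of 0.5 and 8, a mean of at least 50, quantile or median-ratio scaling, centring, robust moderation, all 18 libraries and the length and GC correction kept all 3 counts within 1.5 times. At this number of libraries, differences under about the spread between them were not detectable.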
